A study of Mus musculus with 2 samples.

Results

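The Myc genes and the ribosome biogenesis programme were examined in cultures seeded with mammary basal cells and grown beside M2-like macrophages. For this, 45 genes were taken by name from the 49492 genes of the count table. They comprised the 3 MYC genes and 42 genes for proteins of the nucleolus and of ribosome assembly, and all 45 were found and had enough reads to be tested. Basal cells were sorted from the mammary glands of adult wild-type mice (WT) as CD24+ cells with high CD29 that lacked blood and endothelial markers, and grown as primary cells in a 3D matrix for 11 to 14 days, either with no addition (ctrl) or in wells shared with macrophages (M2). Per the study's methods, the macrophages were grown from bone marrow, driven to the M2-like state with Il-4 and Il-13, kept behind a porous insert and renewed during the culture. By flow cytometry, the study found mostly luminal cells in the grown colonies of both groups, with a larger basal share beside macrophages. The values below are thus those of mixed cultures and not of basal cells alone. Each condition was 1 RNA-seq library, and how much replicate cultures vary is therefore unknown.

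MYC proteins are transcription factors that pair with MAX, bind E-box sequences and are known as drivers of cell growth, and ribosome biogenesis genes are among their best known targets. A ribosome begins in the nucleolus, where RNA polymerase I transcribes the precursor of the ribosomal RNAs, small nucleolar ribonucleoproteins (snoRNPs) modify it, and separate sets of assembly factors build the small and the large subunit. In the mammary epithelium, Myc is known for its part in basal progenitor cells and in the growth of alveoli in pregnancy.

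Sequencing depth was 26912610 reads for ctrl and 29413844 for M2. Counts per 1e6 reads (CPM) used library sizes corrected by TMM factors, a scaling under which most genes are assumed equal, and a log2 difference is M2 over ctrl on the scale of log2(reads + 1) with those sizes. A gene was called separated when the exact binomial test on its reads gave an adjusted p under 0.05 over the 19233 genes tested. This test compares the 2 libraries and not the conditions, and it and the 95% intervals cover counting error only. Markers of both mammary lineages were present and went both ways. Of 8 basal markers, 3 were separated upwards, among them Krt5 (2053 CPM in ctrl and 2902 in M2), and 5 downwards, among them Krt14 (2985 and 2393 CPM) and, with the largest difference, Oxtr (303 and 66.6 CPM). Of 8 luminal markers, 4 were separated upwards, among them Krt8 (1088 and 1261 CPM) and Prom1 (10.4 and 39.0 CPM), and 3 downwards, among them Krt19 (529 and 309 CPM) and Elf5 (208 and 96.3 CPM). Of 11 macrophage markers, Adgre1, Tyrobp, Fcer1g and Chil3 had 0 reads in both libraries. Lyz2, Ctss, Mrc1 and Retnla had 5 reads or fewer in either library. Csf1r (94 and 92 reads) and Cd68 (170 and 165 reads) were read at similar counts in both. The list summed to 1781 and 2356 reads, mostly from Arg1 (1507 and 2090 reads). The 7 fibroblast markers summed to 8801 reads in ctrl and 3816 in M2. The collagen genes Col1a1 (2057 and 1097 reads), Col1a2 (4463 and 1457) and Col3a1 (1612 and 276) made up most of both sums, while Pdgfra (607 and 822 reads) and Dcn (51 and 157) were higher in M2, and Lum and Dpt had 10 reads or fewer in either library. The part of these cell types in the differences below was not tested. In bulk RNA, fewer cells of a type and less RNA per cell cannot be told apart.

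The members with the largest differences went in opposite directions. Mycn and Mycl were lower in M2, Ncl and Npm1 were the only members that were higher by at least 1.5-fold, and most other ribosome biogenesis genes differed by small amounts, mainly upwards. At a 2-fold threshold, 2 of 45 members were called lower, against 6.55% of all genes tested, and 0 of 45 higher, against 8.16%. At a 1.5-fold threshold, 2 members (4.44%) were called higher and 2 lower, where the shares of all genes were 12.8% and 11.1%. With no fold threshold, 26 of 45 members (57.8%) were separated upwards, against 27.0% of all genes, and 5 (11.1%) downwards, against 26.1%. Since the members were well expressed, the same shares were taken over the 11909 genes with at least 278 summed reads, the count of the least-read member, and were 33.3% upwards and 32.3% downwards with no fold threshold, 10.9% and 8.90% at 1.5-fold, and 5.53% and 3.80% at 2-fold. The members' share lower at 2-fold (4.44%) thus lay between the shares for all genes and for well-read genes. The floor was set by Mycn, and the other members had more reads, so these well-read genes are not matched to the members in depth. The median log2 difference of the 45 members was 0.16, against -0.0032 for all genes tested. It was 0.10 with plain library totals in place of TMM, a scaling that moved the median of all genes by -0.06 and left 19 members separated upwards and 6 downwards, where the shares of all genes were 23.7% and 30.9%. These counts depended on the variation assumed between cultures. When replicates were assumed to vary by a coefficient of 0.2 (exactTest of edgeR), Mycn and Mycl were the only members that passed, where 3.59% of all genes were called lower and 5.01% higher at 2-fold.

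**Figure D1:**
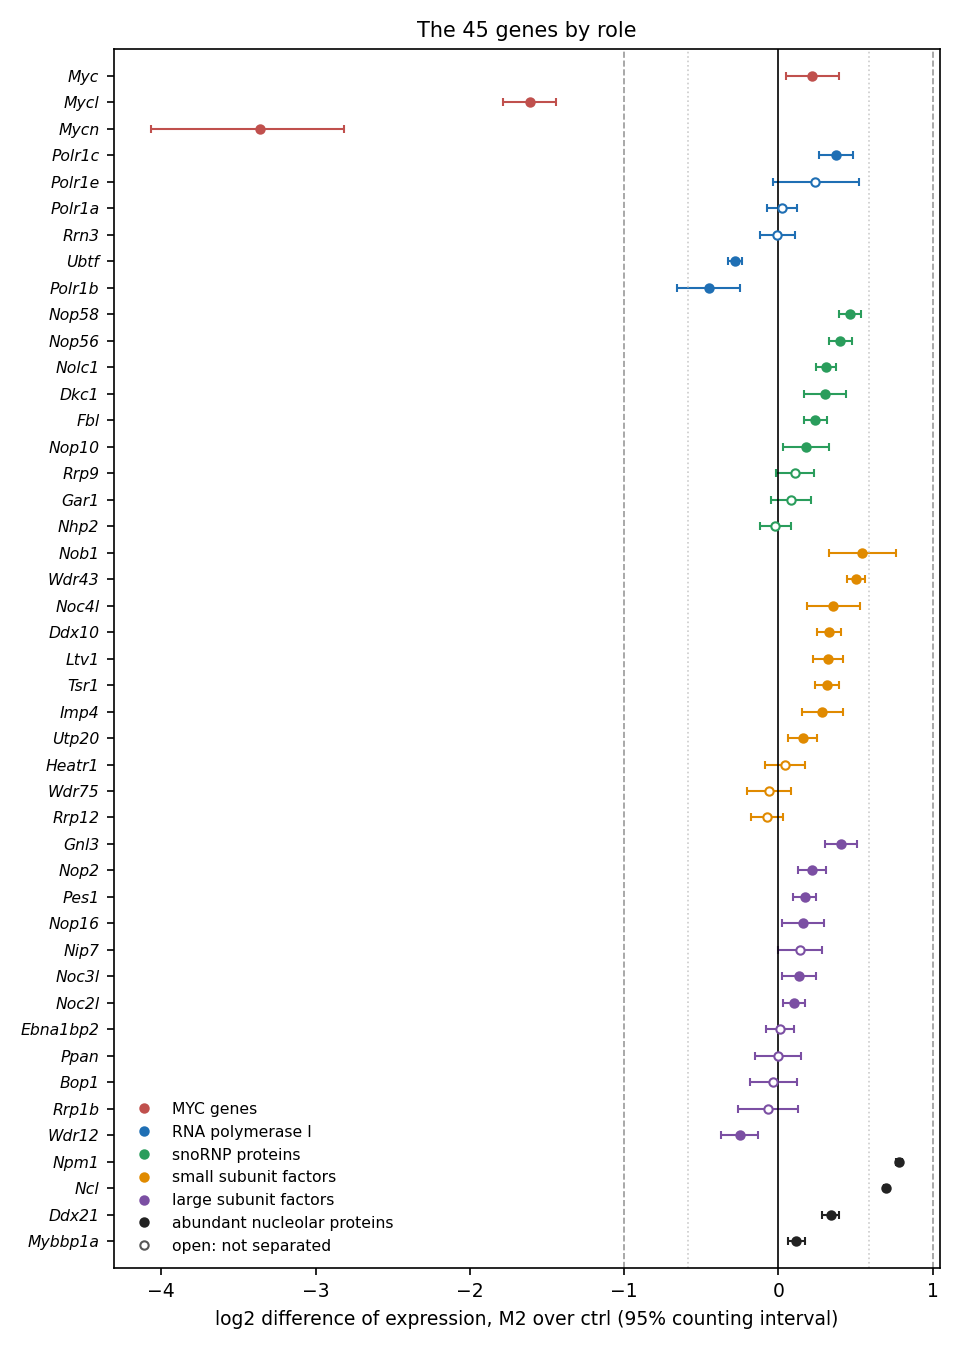
Log2 difference of expression (M2 over ctrl) of the 45 genes on the horizontal axis, 1 gene per line, coloured by role, with 95% counting intervals as bars. Filled points were separated by the reads and open points were not; dashed lines mark 2-fold and dotted lines 1.5-fold. Mycn (-3.36) and Mycl (-1.61) stand apart on the left, and Npm1 (0.78) and Ncl (0.70) are farthest to the right.

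The 3 MYC genes went different ways. Mycn (chr12:12936096-12941914, minus strand), the MYC gene best known from neural and other embryonic tissues, had 253 reads in ctrl and 25 in M2, or 9.21 and 0.868 CPM. Its log2 difference was -3.36 (95% interval -4.06 to -2.81), with an adjusted p = 4.74e-50 in the exact binomial test. Only 0.9% of the genes tested had a lower value. Mycl (chr4:122995652-123002485, plus strand), the family member first found in lung cancer, had 1060 and 364 reads, a log2 difference of -1.61 (-1.79 to -1.44), which is 3.05-fold lower in M2. Myc itself (chr15:61985391-61990374, plus strand) had 492 and 602 reads, and its log2 difference of 0.22 (0.05 to 0.40), with an adjusted p = 0.0244 in the exact binomial test, was under 1.5-fold. Thus Myc was slightly higher in the library in which its relatives were lower. In the exactTest of edgeR with an assumed coefficient of variation of 0.4, Mycn still passed (adjusted p = 0.0266), whereas Mycl did not (adjusted p = 0.891).

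The order of the MYC genes differed between the libraries when levels were set per length (RPKM, the CPM per kilobase of exon). In ctrl, Mycl was highest at 9.56 RPKM (8.99 to 10.2, exact Poisson interval), followed by Myc at 6.59 (6.02 to 7.20) and Mycn at 2.80 (2.46 to 3.17). In M2, Myc was highest at 7.69 RPKM (7.09 to 8.33), followed by Mycl at 3.13 (2.82 to 3.47) and Mycn at 0.264 (0.171 to 0.389). None of these intervals overlapped within a library. Myc thus made up 34.8% of the summed level of the 3 genes in ctrl and 69.4% in M2, while the sum itself was 18.95 and 11.1 RPKM. The exon lengths are those of the table, which joins the exons of all transcripts of a gene, so the order rests on these lengths.

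**Figure D2:**
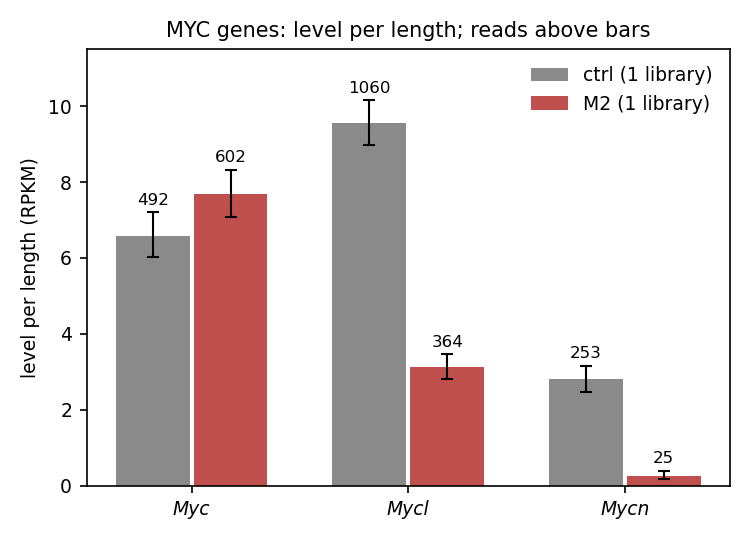
Level per length (RPKM, vertical axis, from 0) of Myc, Mycl and Mycn in the ctrl library (grey) and the M2 library (red), with exact 95% Poisson intervals as error bars and the read counts above the bars. Mycl is the tallest bar in ctrl at 9.56 RPKM and Myc the tallest in M2 at 7.69 RPKM.

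The sequence before the start of Mycn is shown because this gene had the largest difference of the module. It is taken from RefSeq on GRCm38.p6, covers chr12:12941915-12942086 on the minus strand, 5′ to 3′, and leaves out bases that lie within the gene as the table lists it. Capitals mark its only match to the general E-box pattern CANNTG, and there is no CACGTG, the form that MYC binds best.
Mycn: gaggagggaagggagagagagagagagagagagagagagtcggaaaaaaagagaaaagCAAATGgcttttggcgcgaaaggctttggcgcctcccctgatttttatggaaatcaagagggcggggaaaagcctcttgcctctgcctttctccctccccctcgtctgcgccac
The RefSeq window of Mycl lies within the gene as the table lists it and is not shown.

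Among partners and rivals of MYC, shifts were mostly downward and small. The list held 12 genes of the MYC and MAX network, with a median log2 difference of -0.16. Of these, 1 (8.33%) was separated upwards and 8 (66.7%) downwards, against 27.0% and 26.1% of all genes. Mxd3, a MAX partner that opposes MYC and is known from dividing cells, was the only gene of this list that differed by 1.5-fold, at 217 ctrl and 412 M2 reads and a log2 difference of 0.85 (0.62 to 1.10). Its relatives Mxd4 (2734 and 1920 reads, -0.58) and Mxd1 (634 and 484 reads, -0.46), which are known from cells that stop dividing, were separated in the other direction, and both were chosen here after their values were seen. Max, the shared partner, had 2168 and 2104 reads and a value of -0.11 (-0.20 to -0.03).

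The group named abundant nucleolar proteins had the highest median of the role groups (0.52). All 4 were separated upwards, against 27.0% of all genes and 33.3% of genes with at least 278 summed reads. Their ctrl reads ran from 4894 to 67791, and at such depth small differences are separated, such as 0.12 for Mybbp1a. By level the name fits Npm1 and Ncl only. In ctrl, Ubtf, grouped here with RNA polymerase I, had 306 CPM, above Ddx21 (178) and Mybbp1a (181), and was separated downwards. The result for all 4 thus depends on the grouping. Npm1 (chr11:33152287-33163206), nucleophosmin, a chaperone of ribosome assembly and export, had 29800 reads in ctrl and 53794 in M2, or 1085 and 1867 CPM. Its log2 difference of 0.78 (0.76 to 0.80) was a 1.72-fold higher level in M2. Ncl (chr1:86344719-86359400), nucleolin, which binds the nascent ribosomal RNA precursor, had 67791 and 115462 reads, a log2 difference of 0.70 (0.69 to 0.71), which is 1.62-fold. Per length, Npm1 was the highest member in both libraries (407 and 700.4 RPKM) and Ncl the next (242 and 393 RPKM). This order rests on the joined exon lengths of the table, 2665 bases for Npm1 and 10188 for Ncl. By reads, Ncl was the higher of the pair. Ddx21 (chr10:62580248-62602298), an RNA helicase that links RNA polymerase I to ribosomal RNA processing, had 4894 and 6498 reads, a difference of 0.34 (0.29 to 0.39), while Mybbp1a, a regulator of ribosomal RNA transcription, was separated by less. With an assumed coefficient of variation of 0.1, Npm1 and Ncl passed in the edgeR exactTest (adjusted p = 0.00126 and 0.00496), and with 0.2 they did not (adjusted p = 0.348 and 0.464). Reads of Npm1 are uncertain to the extent that they could be shared with its processed pseudogenes. The exons of Ncl overlap 3 small RNA rows of the same strand, which held 46 reads or fewer in each library.

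Together, Ncl and Npm1 accounted for 0.363% of the ctrl library, with a 95% Wilson interval from 0.360% to 0.365%, and for 0.575% of the M2 library, with an interval from 0.573% to 0.578%. This was 57.5% of the reads of the 42 ribosome biogenesis members in ctrl and 66.5% in M2. The summed reads of those 42 genes differed by 0.51 on the log2 scale (0.51 to 0.52). With Ncl and Npm1 left out, which was decided after seeing the values, the other 40 genes summed to 72202 and 85298 reads, a log2 difference of 0.17 (0.16 to 0.19). The sum over the programme therefore rested mainly on the most abundant pair.

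**Figure D3:**
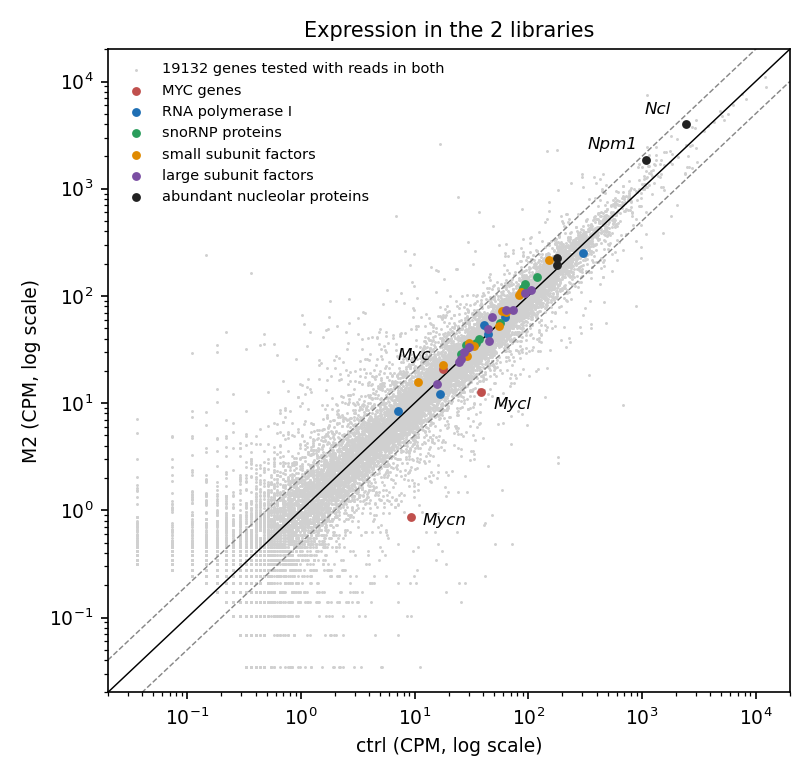
Expression of the genes tested in ctrl (horizontal axis, CPM, log scale) and M2 (vertical axis, CPM, log scale), with all genes that had reads in both libraries in grey and the 45 members coloured by role. The solid line marks equal expression and dashed lines a 2-fold difference: Mycn and Mycl lie under the lower dashed line, Ncl and Npm1 lie above the solid line at the top of the range, and the other members lie close to it.

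The 250 bases before the RefSeq start of Ncl are shown as the promoter of the most abundant of these genes in reads (chr1:86359456-86359705, minus strand, GRCm38.p6, 5′ to 3′). No match to CANNTG was found in them, so no base is in capitals.
Ncl: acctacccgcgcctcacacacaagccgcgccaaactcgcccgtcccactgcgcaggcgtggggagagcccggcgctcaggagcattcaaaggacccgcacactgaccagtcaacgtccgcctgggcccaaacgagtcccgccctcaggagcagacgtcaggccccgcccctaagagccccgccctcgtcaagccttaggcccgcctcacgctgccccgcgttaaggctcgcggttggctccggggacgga

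The 6 members of RNA polymerase I, the enzyme that starts the process, and its factors had a median log2 difference of 0.0083, and none differed by 1.5-fold. Of these, 1 (16.7%) was separated upwards and 2 (33.3%) downwards, near the shares of all genes (27.0% and 26.1%). Polr1c (chr17:46243920-46248054), a subunit shared with RNA polymerase III, had 1129 ctrl and 1536 M2 reads, with a log2 difference of 0.37 (0.26 to 0.49). Polr1b (chr2:129100995-129126594), the second largest subunit of the enzyme, had 461 and 354 reads, a difference of -0.45 (-0.65 to -0.25). Ubtf (chr11:102304560-102319742), the factor that binds and opens the ribosomal DNA, had 8402 and 7270 reads, a difference of -0.28 (-0.32 to -0.23). Subunits of the same enzyme thus lay on opposite sides of 0. The largest subunit Polr1a, Polr1e and the initiation factor Rrn3 were not separated, with values from -0.0064 to 0.24. A list of 14 partners comprised other subunits, the promoter-selecting TAF1 factors and the terminator Ttf1. Of these, 8 (57.1%) were separated upwards and 0 downwards, the median was 0.26, and none differed by 1.5-fold.

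The snoRNP proteins were shifted upwards without any large difference. Of 9 members, 6 (66.7%) were separated upwards, 0 downwards, against 27.0% and 26.1% of all genes, and the median was 0.24. Nop58 (chr1:59684971-59719044) had 2565 ctrl and 3717 M2 reads, with a log2 difference of 0.47 (0.39 to 0.54), and its partner Nop56 (chr2:130274430-130279313) had 2447 and 3393 reads, a difference of 0.40 (0.33 to 0.48). Both form the core of the box C/D particles with the methyltransferase Fbl, which was also separated upwards. Nolc1 (chr19:46075863-46085528), a chaperone that carries snoRNPs between Cajal body and nucleolus, had 3305 and 4292 reads, a difference of 0.31 (0.24 to 0.37). Of the 4 core proteins of the box H/ACA particles, Dkc1, the pseudouridine synthase, and Nop10 were separated upwards, while Gar1 and Nhp2 were not. The latter pair and Rrp9, which belongs to the particle that guides the first cuts of the precursor, had values from -0.02 to 0.11. Among 10 other snoRNP genes, chiefly assembly factors, 3 were separated upwards and 3 downwards.

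Small subunit factors had the highest share of separated genes among the groups with more than 4 members. Of 11, 8 (72.7%) were separated upwards and 0 downwards, against 27.0% and 26.1% of all genes, with a median of 0.31. Nob1 (chr8:107412486-107425051), the nuclease that makes the last cut of the small subunit RNA, had 294 ctrl and 450 M2 reads, with a log2 difference of 0.54 (0.33 to 0.76). Wdr43 (chr17:71616215-71659031), an early factor that joins transcription to processing, had 4156 and 6181 reads, a difference of 0.50 (0.45 to 0.56). Noc4l (chr5:110648418-110653417), a nucleolar assembly factor, had 489 and 657 reads, a difference of 0.36 (0.19 to 0.53). The separated genes also included the helicase gene Ddx10, Ltv1 and Tsr1, which act in late steps, Imp4 and Utp20. These had values from 0.16 to 0.33. Heatr1, Wdr75 and Rrp12 were not separated, with values from -0.07 to 0.04. Tsr1 shares 1240 of its 3837 exon bases with Srr on the opposite strand, and reads of this pair cannot be assigned with certainty where counting did not use strand.

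The large subunit factors included genes on both sides of 0. Of 12 members, 6 were separated upwards, 1 downwards and 5 not at all, and the median was 0.12. The shares of all genes tested were 27.0% upwards and 26.1% downwards. Gnl3 (chr14:31012434-31019089), nucleostemin, a nucleolar GTPase known from stem cells and tumours, had 1317 ctrl and 1829 M2 reads, with a log2 difference of 0.40 (0.30 to 0.51). Nop2 (chr6:125131909-125144753), a methyltransferase of the large subunit RNA, had 1752 and 2136 reads, a difference of 0.22 (0.12 to 0.31). Wdr12 (chr1:60069785-60098645) was the one gene of this group separated downwards, with 1231 and 1085 reads and a difference of -0.25 (-0.37 to -0.13). It works in a complex with Pes1 and Bop1, which were chosen for mention after their values were seen. Pes1 had 2576 and 3042 reads and was separated upwards at 0.17 (0.09 to 0.25), and Bop1 had 673 and 691 reads and was not separated, at -0.03 (-0.19 to 0.12). Nop16, Noc3l and Noc2l were separated upwards with values from 0.10 to 0.16, and Nip7, Ebna1bp2, Ppan and Rrp1b were not separated, with values from -0.07 to 0.14. Noc2l shares 598 of its 2867 exon bases with Samd11 on the opposite strand.

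Genes of ribosome biogenesis outside the 42 were counted from lists drawn up by role. Over all genes tested, 27.0% were separated upwards and 26.1% downwards. Of 44 other small subunit genes tested, 21 (47.7%) were separated upwards and 6 (13.6%) downwards, with a median of 0.14. Tbl3, an early processing factor, was called higher at 2-fold, at 491 ctrl and 1134 M2 reads and a log2 difference of 1.14 (0.98 to 1.29). It was the only such gene, or 2.27% of the list, against 8.16% of all genes. Of 47 other large subunit genes, 26 (55.3%) were separated upwards and 8 (17.0%) downwards, with a median of 0.17. Rpf1 (1023 and 1966 reads, 0.87), Las1l, an endonuclease that cuts the precursor, (5124 and 8887 reads, 0.73) and Brix1 (1442 and 2305 reads, 0.61) were called higher at 1.5-fold. These were 6.38% of the list, against 12.8% of all genes. The helicase gene Ddx55 was the only gene of that list called lower at 2-fold (2.13%, against 6.55% of all genes). It had 1142 and 539 reads and a log2 difference of -1.15, or 2.22-fold lower. The medians of these lists lay near that of the 42 members (0.16), and the difference between lists was not tested.

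**Figure D4:**
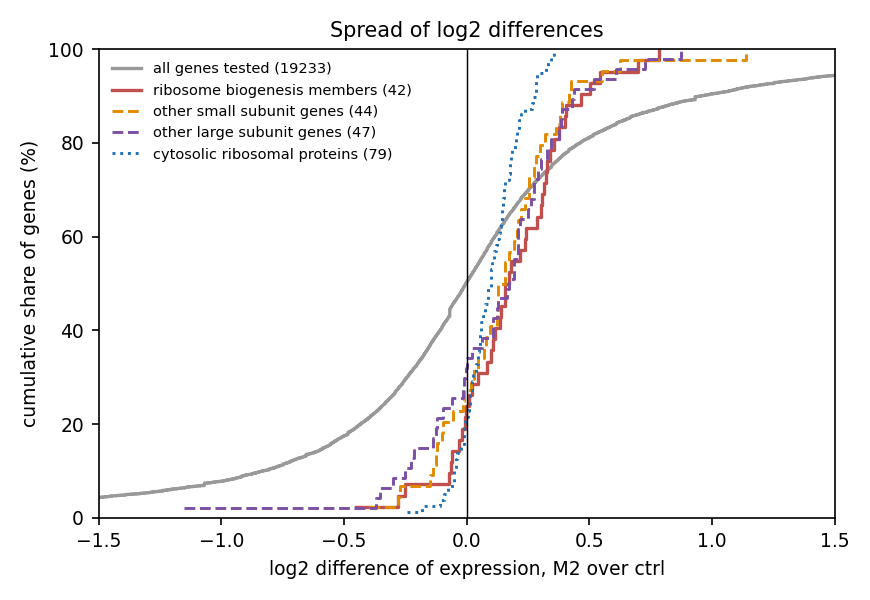
Cumulative share of genes (vertical axis, %) by log2 difference, M2 over ctrl (horizontal axis, drawn from -1.5 to 1.5), for all genes tested, the 42 ribosome biogenesis members, other small and large subunit genes and cytosolic ribosomal proteins, with the number of genes in brackets. The members' curve is steeper than that of all genes and crosses 50% to the right of 0, at the median of 0.16, whereas all genes cross it at -0.0032.

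To see which members carry the best MYC binding form in their promoters, RefSeq windows from 250 bases before to 50 bases after the start were searched for CACGTG, which reads the same on both strands and is one form of CANNTG. A window was found for 38 of the 42 ribosome biogenesis members, and 9 of these (23.7%) held CACGTG, against 8.09% of 27025 genes with a window. The share was 21.6% in other small subunit genes, 17.9% in other large subunit genes and 10.3% in cytosolic ribosomal proteins. The general pattern CANNTG was in 65.8% of the members, and in 20265 of the 27025 genes. Those 27025 genes include genes not tested here and were not matched to the members in expression or base composition. The matches are shown in windows of 30 bases on GRCm38.p6, 5′ to 3′ on the strand of the gene, with CACGTG in capitals. They fall from 215 bases before the start in Rrn3 to 40 bases after it in Mybbp1a.
Wdr43 (chr17:71616220-71616249, plus strand): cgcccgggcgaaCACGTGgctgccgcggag
Ltv1 (chr10:13193092-13193121, minus strand): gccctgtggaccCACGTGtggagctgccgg
Tsr1 (chr11:74898092-74898121, plus strand): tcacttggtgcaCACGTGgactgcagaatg
Imp4 (chr1:34439696-34439725, plus strand): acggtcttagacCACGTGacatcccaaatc
Nop2 (chr6:125131811-125131840, plus strand): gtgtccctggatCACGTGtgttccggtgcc
Pes1 (chr11:3963965-3963994, plus strand): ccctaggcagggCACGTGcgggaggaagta
Utp20 (chr10:88826765-88826794, minus strand): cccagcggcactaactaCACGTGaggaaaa
Mybbp1a (chr11:72441347-72441376, plus strand): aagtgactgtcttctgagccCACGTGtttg
Rrn3 first match (chr16:13780472-13780501, plus strand): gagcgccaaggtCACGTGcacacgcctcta
Rrn3 next match (chr16:13780639-13780668, plus strand): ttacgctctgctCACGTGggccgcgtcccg
Of the 9 genes, 8 were separated upwards and 0 downwards, with a median log2 difference of 0.22 and a range from -0.0064 (Rrn3) to 0.50 (Wdr43). Of the 29 members whose windows held no CACGTG, 15 were separated upwards and 3 downwards, with a median of 0.14, and this group included Ncl. Over all genes tested, 27.0% were separated upwards and 26.1% downwards. Whether members with and without CACGTG differ was not tested. A match to these letters is not evidence of binding.

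Beyond the ribosome, 30 genes known as MYC targets were counted, with a median of 0.24. Of these, 19 (63.3%) were separated upwards and 4 (13.3%) downwards, against 27.0% and 26.1% of all genes. Ccnd2, a cyclin of early cell cycle phases, was called higher at 2-fold, at 1103 ctrl and 3879 M2 reads and a log2 difference of 1.74 (1.65 to 1.84). Ldha, lactate dehydrogenase, which also responds to low oxygen, had 10623 and 23494 reads and a difference of 1.08 (1.04 to 1.11). These 2 genes were 6.67% of the list, near the 8.16% of all genes called higher at 2-fold. At 1.5-fold the shares called higher were 13.3% of the list and 12.8% of all genes. In this list, 11 of 28 windows (39.3%) held CACGTG. The RNA exosome, which trims ribosomal precursors, had 6 of 14 genes (42.9%) separated upwards and 3 (21.4%) downwards. Only its cofactor Mphosph6 reached 1.5-fold, with 1302 and 2058 reads and a difference of 0.59 (0.49 to 0.69). The 79 genes of cytosolic ribosomal proteins, the products that the programme assembles, had a median of 0.10. Of these 79 genes, 51 (64.6%) were separated upwards, 9 (11.4%) downwards and 0 by 1.5-fold. With plain library totals their median was 0.04, with 34 of 79 upwards and 19 of 79 downwards, where the shares of all genes under that scaling were 23.7% and 30.9%.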

How the data were processed

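Gene counts of 2 libraries, 1 of untreated 3D cultures (ctrl) and 1 of co-cultures (M2), were analysed, with groups taken from the sample labels. The authors deposited raw read counts per gene without normalization for 49492 genes. The submitters' processing notes name the builds GRCm38 and mm10, whereas the aligner, the counting tool, the annotation and the use of strand are not given in the sources used here. All 45 members lay at the place of the same name in GENCODE M21 (GRCm38). Of these, 13 share exon bases with a gene on the opposite strand.

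Genes with at least 10 summed reads were tested (19233 genes). TMM factors from edgeR 4.0.16 (R 4.3.3) were 1.02 for ctrl and 0.980 for M2. A pseudocount of 1 read was used for log2 differences only. Reads were tested by a two-sided exact binomial test (scipy 1.17.1) with Benjamini-Hochberg adjustment over all genes tested, and intervals of log2 differences were derived from exact 95% Clopper-Pearson limits on each gene's M2 fraction. Calls required an adjusted p under 0.05 and, where stated, a 1.5-fold or 2-fold difference. With 1 library per group, the quasi-likelihood test of edgeR and the Wald test of DESeq2 could not be run, and the exactTest was used with assumed coefficients of variation of 0.1, 0.2 and 0.4. With single libraries, the intervals cover counting error only. No molecular identifiers are stated, so copies made in amplification may be counted as separate reads. The intervals may then be too narrow even for counting error. The binomial test and its intervals were tried on simulated Poisson counts. These hold counting error only, so they check the computation and cannot show how the test behaves when cultures vary.

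The members and lists were chosen with earlier results of these data known. By rule, each role group was described by its called members, filled up to 3 genes with the largest difference where either library had 200 reads or more, and pathway lists by up to 3 called genes per direction. Of the list genes, Snu13, Utp4 and Utp11 were matched by older symbols, and Riok2 was not analysed here. Promoter windows were from RefSeq (GRCm38.p6).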

Additional observations from a re-analysis of the deposited data

How the results depend on the processing

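Of the 13 alternatives, 8 change a member's log2 difference, and under these 40 of the 45 members kept its sign. The median of the members lay between 0.09 and 0.16 under these and the 2 other filters on low counts. Library totals, with and without mitochondrial genes, turned Polr1a to -0.036 and -0.0468, Heatr1 to -0.0148 and -0.0256 and Ebna1bp2 to -0.049 and -0.0598. Removal of a gene length trend turned Ebna1bp2 to -0.0095, and removal of a GC trend turned it to -0.0032, Bop1 to 0.0038 and Ppan to 0.0418. None of these genes was separated by the reads. With at least 1 CPM in both libraries, 1 member was lower at 2-fold and 1 at 1.5-fold, because Mycn fell under the filter. In the exactTest at an assumed variation of 0.1, 2 members were separated upwards and 2 downwards (4.44% each), below the shares of all genes (11.1% and 9.39%). With 0.2 there were 0 upwards at any fold, 0 at 1.5-fold and 2 downwards, against 5.01% and 3.59% of all genes. With 0.4 there were 0 upwards at any fold, 0 at 1.5-fold, and 1 downwards at any fold, at 1.5-fold and at 2-fold, against 0.910% and 0.676%. The count of called members thus depends on the variation between cultures, which was not measured.

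With library totals, 1 gene of the MYC network was lower at 1.5-fold, against 0 with TMM. Other small subunit genes had 1 higher at 1.5-fold against 2, the exosome had 0 against 1, and ribosomal proteins had 19 separated downwards and a median of 0.0384. The scaling itself shifts all genes by -0.06. The size factors of DESeq2 moved no count of these lists by over 1.5 times. Depth limits Mycn most, with 25 reads in M2.

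No paired analysis was possible because ctrl and M2 are single libraries.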
